A study of Mus musculus with 10 samples.

Results

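The HoxB cluster genes were examined in cultured mouse Wolffian ducts exposed to an activator or an inhibitor of hedgehog signalling. Members were all probe sets whose platform gene symbol was one of the 10 HoxB genes, Hoxb1 to Hoxb9 and Hoxb13. A probe set is the group of array probes that reads 1 transcript. Of the 10 genes, 9 were measured under their name, each by 1 probe set, out of 22206 probe sets on the array. No probe set carried the name Hoxb4 in the annotation used here, so Hoxb4 was not analysed here.

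Hox genes encode transcription factors with a homeodomain, a DNA-binding fold, and are arranged in clusters whose order along the chromosome matches the order of their domains along the body axis. Genes at the 3′ end of a cluster are switched on early and reach far forward, and genes at the 5′ end are switched on late and stay toward the tail. Hox proteins bind DNA together with PBX and MEIS cofactors, and retinoic acid and CDX transcription factors are known inputs to the clusters. In the urogenital tract, Hoxb7 is known for its activity in the Wolffian duct and the ureteric bud, and its promoter is widely used to drive transgenes there. The Wolffian duct gives rise to the epididymis, the vas deferens and the seminal vesicle.

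Ducts came from embryos of mice 16.5 days after mating and were kept at an air-liquid interface for 72 h, and their total RNA was hybridised to Affymetrix arrays. The SAG group had 4 arrays from ducts cultured with 0.5 µM SAG, an agonist of Smoothened, the membrane protein that passes the hedgehog signal into the cell. The cyclopamine group had 3 arrays from ducts cultured with 25 µM cyclopamine, a plant alkaloid that inhibits Smoothened. The vehicle group had 3 arrays from ducts in culture medium, and the labels do not say whether solvent was added. The labels give no genotype, strain, sex or number of ducts per array for any of the 10 arrays. The design text calls the samples of a condition biological replicates, and nothing says whether they came from separate litters, so the p-values measure the spread between these samples. The titles name the tissue as pronephros whereas the protocols name it as Wolffian duct.

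The deposited signals were read as log2 from their range, which ran between 2.95 and 18.75, and the array medians lay between 7.55 and 7.70. Precision was set by how few arrays each group had. The hedgehog targets Gli1, Ptch1 and Hhip were 3 of 3 higher with SAG and 3 of 3 lower with cyclopamine than with vehicle, although the Gli1 call with SAG was lost in 7 of the 10 fits that left out 1 array (limma adjusted p up to 0.204). Defining markers of the duct epithelium were present, with 14 of 16 listed genes measured and 0 of these with a mean under 5.19, the lower quartile over all probe sets. Their mean log2 signal per array ran 9.60 to 10.16 in SAG ducts, 11.74 to 12.43 in cyclopamine ducts and 10.61 to 11.58 in vehicle ducts, with no overlap between any of the groups. Each duct holds epithelium and surrounding stroma, and in such bulk samples fewer cells of a type and less RNA per cell cannot be told apart.

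From the 3′ end, 7 HoxB genes from Hoxb2 to Hoxb9 were well above the dim end of the array, and the outermost measured genes, Hoxb1 and Hoxb13, were not. Hoxb1, which sets the identity of a hindbrain segment, had log2 signals of 4.08 to 4.61 in SAG ducts, 4.11 to 4.56 in cyclopamine ducts and 3.94 to 4.16 in vehicle ducts. Hoxb13, which is known from the tail end of the embryo and from the prostate, had log2 signals of 3.70 to 3.89 in SAG ducts, 3.62 to 3.82 in cyclopamine ducts and 3.79 to 3.98 in vehicle ducts. Both genes lay below the lower quartile of all probe sets on every array, and their groups overlapped. At this dim signal no comparison between groups passed the test for either gene. The log2 difference of Hoxb1 was 0.27 between SAG and vehicle (95% interval -0.10 to 0.64) and 0.22 between cyclopamine and vehicle (-0.18 to 0.61). For Hoxb13 the log2 differences were -0.09 (-0.35 to 0.17) and -0.18 (-0.46 to 0.09).

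**Figure D1:**
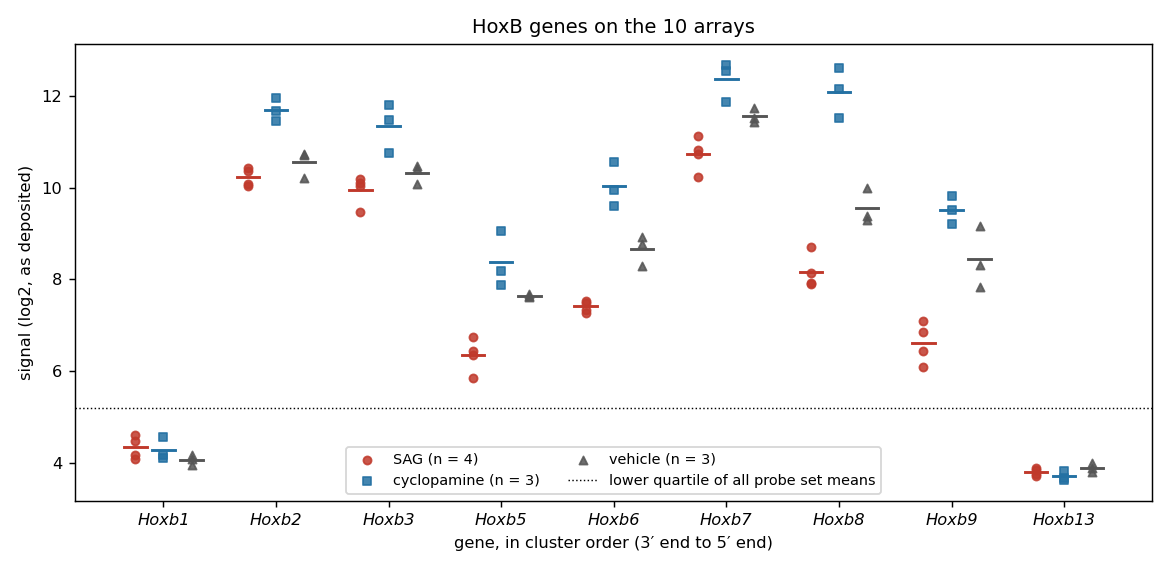
Log2 signal of the 9 measured HoxB genes on each array, with a bar for each group's mean. Genes run along the axis from the 3′ to the 5′ end of the cluster, and the dotted line is the lower quartile of all probe set means, 5.19. SAG arrays lie below all vehicle arrays, and cyclopamine arrays above all of them, for Hoxb5, Hoxb6, Hoxb7, Hoxb8 and Hoxb9.

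Hedgehog activation was compared with vehicle to ask which HoxB genes respond to more signal. Hoxb6 and Hoxb9 fell with SAG, which made 2 of 9 measured HoxB genes, where 0.279% of all probe sets fell. None of the 9 rose, where 0.45% of all probe sets did. All SAG arrays lay below all vehicle arrays for 5 of 9 genes, Hoxb5 to Hoxb9, where 6.63% of all probe sets did so, and above them for 0 of 9, where 6.25% did. The median log2 difference of the 9 genes was -0.83, against 0.01 over all probe sets.

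Hoxb9, which takes part in patterning the thoracic ribs, had log2 signals of 6.44, 7.08, 6.84 and 6.10 in SAG ducts, against 7.82, 9.18 and 8.31 in vehicle ducts. The highest SAG array was well below the lowest vehicle array, and vehicle 2 stood above the other vehicle arrays. Its log2 difference was -1.82 (SE 0.32, adjusted p = 0.0316 with limma), so that signal was 3.53-fold lower with SAG. Hoxb6, a mid-cluster gene of the trunk, had log2 signals of 7.26, 7.54, 7.49 and 7.34 in SAG ducts, against 8.76, 8.92 and 8.29 in vehicle ducts. The 4 SAG arrays lay close together and all below the vehicle arrays. The log2 difference of Hoxb6 was -1.25 (SE 0.23, adjusted p = 0.0360 with limma), a 2.38-fold lower signal.

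3 further genes had SAG arrays that did not overlap the vehicle arrays without passing the test. Hoxb8, which is known from the axial skeleton and from grooming behaviour in mice, averaged 8.17 ± 0.38 in SAG ducts (SD, n = 4) and 9.56 ± 0.38 in vehicle ducts (SD, n = 3). Its log2 difference was -1.39 (95% interval -2.03 to -0.76), and its adjusted p with limma was 0.0602. Hoxb5, which acts in neural crest cells of the gut wall, averaged 6.35 ± 0.37 in SAG ducts (SD, n = 4) and 7.64 ± 0.04 in vehicle ducts (SD, n = 3), a log2 difference of -1.29 (adjusted p = 0.0644 with limma). Hoxb7 averaged 10.73 ± 0.37 in SAG ducts (SD, n = 4) and 11.56 ± 0.15 in vehicle ducts (SD, n = 3), a log2 difference of -0.83 (adjusted p = 0.178 with limma). Toward the 3′ end the arrays overlapped. Hoxb2 and Hoxb3, both known from hindbrain segments, had log2 differences of -0.32 (95% interval -0.72 to 0.08) and -0.37 (-0.93 to 0.19).

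Both SAG calls depended on which arrays were kept. The Hoxb6 call was lost without SAG 1, 2, 3 or 4, cyclopamine 1, vehicle 1 or vehicle 2 (limma adjusted p 0.0508 to 0.200), and the Hoxb9 call without SAG 1, 3 or 4, vehicle 2 or vehicle 3 (0.0667 to 0.124), while Hoxb5 and Hoxb8 passed without cyclopamine 2 or without cyclopamine 3 (0.0199 to 0.0472), so the count ran from 0 to 4. With variances estimated for each probe set alone, adjusted p was 0.182 for Hoxb6 and 0.196 for Hoxb9.

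Hedgehog inhibition was compared with the same vehicle arrays to ask which HoxB genes respond to less signal. Hoxb2, Hoxb6 and Hoxb8 rose with cyclopamine, and none of the HoxB genes fell. These were 3 of 9 measured genes, where 2.17% of all probe sets rose and 5.12% changed in either direction. All cyclopamine arrays lay above all vehicle arrays for 7 of 9 genes, Hoxb2 to Hoxb9, where 11.2% of all probe sets did so. The median log2 difference of the 9 genes was 1.03, against 0.02 over all probe sets. Since the SAG and the cyclopamine differences share the vehicle arrays, a high or low vehicle array moves both.

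Hoxb8 had log2 signals of 12.15, 11.52 and 12.61 in cyclopamine ducts, against 9.30, 9.99 and 9.38 in vehicle ducts. Every cyclopamine array was more than 1 log2 unit above every vehicle array. The log2 difference was 2.54 (SE 0.31, 95% interval 1.86 to 3.21, adjusted p = 0.00181 with limma), a 5.80-fold higher signal and the largest difference among the 9 genes.

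Hoxb6 had log2 signals of 9.95, 9.61 and 10.57 in cyclopamine ducts, against 8.76, 8.92 and 8.29 in vehicle ducts, with no overlap. Its log2 difference was 1.39 (SE 0.24, adjusted p = 0.00942 with limma), a 2.61-fold higher signal. Hoxb2 had log2 signals of 11.68, 11.47 and 11.95 in cyclopamine ducts, against 10.74, 10.72 and 10.20 in vehicle ducts. Its groups did not overlap either, and its log2 difference was 1.15 (SE 0.19, adjusted p = 0.00810 with limma), a 2.21-fold higher signal.

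The other 4 genes between Hoxb2 and Hoxb9 had higher cyclopamine arrays without passing the test. Hoxb9 averaged 9.51 ± 0.30 in cyclopamine ducts and 8.44 ± 0.68 in vehicle ducts (SD, n = 3 each), a log2 difference of 1.07 (adjusted p = 0.109 with limma). Its gap was narrow, since the lowest cyclopamine array, at 9.21, was just above vehicle 2 at 9.18. Hoxb3 averaged 11.35 ± 0.54 in cyclopamine ducts and 10.32 ± 0.21 in vehicle ducts (SD, n = 3 each), a log2 difference of 1.03 (adjusted p = 0.0551 with limma). Hoxb7 averaged 12.37 ± 0.43 in cyclopamine ducts and 11.56 ± 0.15 in vehicle ducts (SD, n = 3 each), a log2 difference of 0.81 (adjusted p = 0.0999 with limma). For Hoxb5 the log2 difference was 0.73 (95% interval 0.09 to 1.37), the smallest among these genes, with an adjusted p of 0.199 in the limma fit.

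The Hoxb2, Hoxb6 and Hoxb8 calls held without any 1 array, with limma adjusted p at most 0.0306, 0.0359 and 0.0127, but in a fit of only the cyclopamine and vehicle arrays adjusted p was 0.0525 for Hoxb6. Hoxb3 and Hoxb7 passed without cyclopamine 2 (limma adjusted p 0.00927 and 0.0249), so that 5 of 9 genes were then called, Hoxb3 also without SAG 2 (0.0496), and Hoxb9 without vehicle 2 (0.0384).

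**Figure D2:**
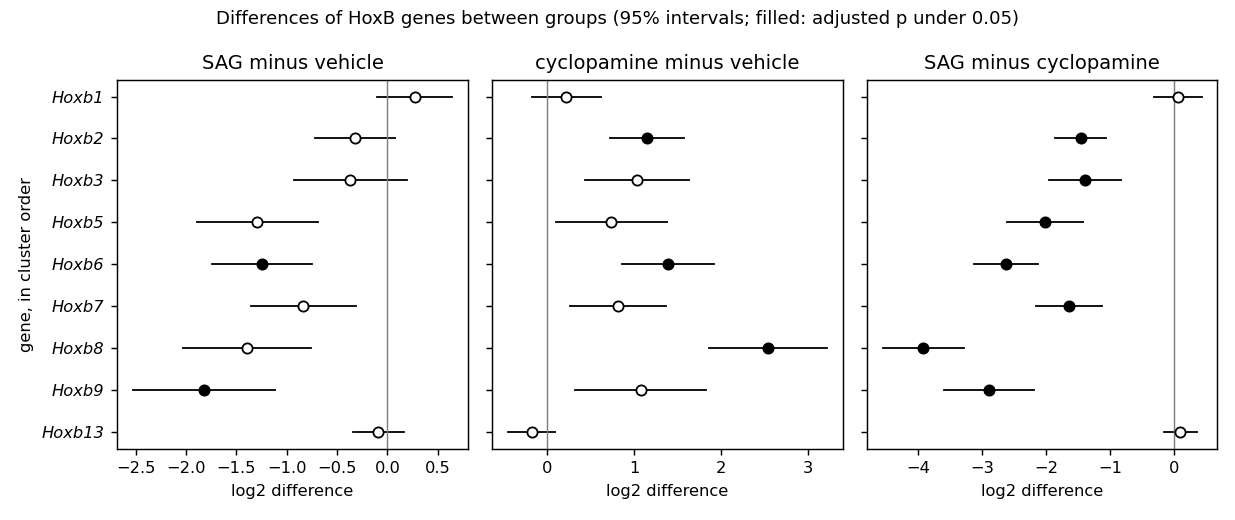
Log2 differences of the 9 HoxB genes for SAG minus vehicle, cyclopamine minus vehicle and SAG minus cyclopamine, with 95% intervals from limma; filled points have an adjusted p under 0.05. The filled points are 2 of 9 for SAG minus vehicle, 3 of 9 for cyclopamine minus vehicle and 7 of 9 for SAG minus cyclopamine, and Hoxb8 lies farthest from 0 in the panels for cyclopamine minus vehicle and SAG minus cyclopamine.

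Activated and inhibited ducts were then compared directly. All 7 genes from Hoxb2 to Hoxb9 were lower in SAG ducts than in cyclopamine ducts. They were 7 of 9 measured genes, where 5.92% of all probe sets were lower and 11.3% changed in either direction. The arrays of the 2 groups did not overlap for the same 7 of 9 genes, where 10.5% of all probe sets were lower with no overlap, and 0 of 9 were higher with no overlap, where 10.7% were. The median log2 difference of the 9 genes was -1.64, against 0.01 over all probe sets.

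Hoxb8 had log2 signals of 7.90, 8.72, 8.14 and 7.91 in SAG ducts, against 12.15, 11.52 and 12.61 in cyclopamine ducts. The log2 difference was -3.93 (SE 0.29, adjusted p = 1.87e-05 with limma), a 15.2-fold lower signal in SAG ducts. Hoxb9, with a log2 difference of -2.89, was 7.43-fold lower in SAG ducts (adjusted p = 0.000245 with limma), and Hoxb6, with a log2 difference of -2.63, was 6.21-fold lower (adjusted p = 5.36e-05 with limma). For Hoxb5 the log2 signals were 6.44, 6.35, 6.73 and 5.86 in SAG ducts, against 8.18, 7.87 and 9.06 in cyclopamine ducts, a 4.07-fold lower signal (adjusted p = 0.000757 with limma).

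Hoxb7 had log2 signals of 10.24, 10.82, 11.12 and 10.73 in SAG ducts, against 12.69, 11.88 and 12.55 in cyclopamine ducts, and was 3.13-fold lower in SAG ducts (adjusted p = 0.00114 with limma). The smallest differences among the 7 genes were at the 3′ side. Hoxb2 had log2 signals of 10.05, 10.35, 10.44 and 10.09 in SAG ducts, against 11.68, 11.47 and 11.95 in cyclopamine ducts, and was 2.76-fold lower in SAG ducts (adjusted p = 0.000451 with limma). Hoxb3 had log2 signals of 10.11, 9.48, 10.20 and 10.03 in SAG ducts, against 11.48, 10.76 and 11.82 in cyclopamine ducts, and was 2.64-fold lower in SAG ducts (adjusted p = 0.00475 with limma). No array of one group reached the other group for any of these genes. All 7 calls held without any 1 array, with limma adjusted p at most 0.0223.

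Across the 3 groups the means ran SAG, vehicle, cyclopamine from low to high for 7 of 9 HoxB genes, as for 20.7% of all probe sets. For 5 of 9 genes, Hoxb5, Hoxb6, Hoxb7, Hoxb8 and Hoxb9, the 3 groups were in that order with no overlap at all, which was the case for 1.21% of all probe sets. For Hoxb2 and Hoxb3 the SAG and vehicle arrays overlapped and only the cyclopamine arrays stood apart from vehicle.

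Place along the cluster was then set beside the size of the differences. Over the 7 genes from Hoxb2 to Hoxb9, Spearman's rho between place in the cluster and the log2 difference was -0.857 for SAG against vehicle, with genes nearer the 5′ end lower. It was 0.214 for cyclopamine against vehicle and -0.821 for SAG against cyclopamine. With the dim Hoxb1 and Hoxb13 included, rho over 9 genes was -0.467, 0.0333 and -0.317. These values describe genes that share the same arrays and are no test, and the difference between the rho values was not tested.

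Within a group the 7 genes moved with particular arrays. Among cyclopamine arrays, cyclopamine 2 was lowest in 7 of 7 genes and cyclopamine 3 was highest in 6. Vehicle 2 was highest of the vehicle arrays in 5 of 7 genes. Among SAG arrays, SAG 1 was lowest in 4 of 7 genes, and the highest was SAG 3 in 4 and SAG 2 in 3. The mean of the duct epithelium markers was also lowest on cyclopamine 2, at 11.74 against 12.28 and 12.43 on cyclopamine 1 and 3, and highest on vehicle 2, at 11.58 against 10.94 and 10.61 on vehicle 1 and 3. Both the marker mean and the mean of the 7 HoxB genes were highest on cyclopamine 3 among cyclopamine arrays. The remaining extremes differed, since the marker mean was lowest on vehicle 3 and SAG 1 and highest on SAG 2. The HoxB mean was lowest on SAG 4, highest on SAG 3 and lowest on vehicle 1, at 9.394 against 9.400 on vehicle 3. With group means removed, Pearson correlations of the 7 genes with the marker mean ran from 0.24 for Hoxb3 to 0.90 for Hoxb8, a description with no test.

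Markers of the duct epithelium were read beside the HoxB genes. Of 14 measured, 2 fell and 0 rose with SAG, and 7 rose and 0 fell with cyclopamine, both against vehicle in the limma fit. Over all probe sets, 0.279% fell and 0.45% rose with SAG, and 2.17% rose and 2.95% fell with cyclopamine. The median log2 differences of the 14 markers were -1.32 with SAG and 1.15 with cyclopamine. Pax2, a transcription factor of the duct, had log2 differences of -1.73 with SAG (adjusted p = 0.115 with limma) and 3.48 with cyclopamine (adjusted p = 0.00264). Of the 14, 2 had negative log2 differences with cyclopamine, the receptor gene Ret at -1.55 with overlapping arrays and the transcription factor gene Lhx1 at -0.90 with no overlap, and neither passed (limma adjusted p 0.302 and 0.0845). Mesenchyme markers were at 14.85 to 14.97 in SAG ducts, 13.71 to 13.97 in cyclopamine ducts and 14.71 to 14.76 in vehicle ducts, as the mean of 13 genes per array. Smooth muscle markers were at 11.82 to 12.01 in SAG ducts, 9.72 to 10.13 in cyclopamine ducts and 12.20 to 12.62 in vehicle ducts, as the mean of 10 genes per array. The part of a change in tissue make-up in the HoxB differences was not tested.

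As a description, each HoxB signal was also expressed as its log2 difference from the duct epithelium mean on the same array. On that scale Hoxb8 was 1.43 higher in cyclopamine ducts than in vehicle ducts, with no overlap of arrays. The other 6 of 7 genes from Hoxb2 to Hoxb9 overlapped between cyclopamine and vehicle, with differences of -0.38 for Hoxb5 to 0.27 for Hoxb6. Between SAG and vehicle, Hoxb5 was at -0.04, Hoxb6 at 0.01, Hoxb7 at 0.42, Hoxb8 at -0.13 and Hoxb9 at -0.56, and these overlapped. Hoxb2 was 0.94 higher in SAG ducts than in vehicle ducts on that scale with no overlap, and Hoxb3 was 0.89 higher with overlap. A difference on this scale shows that a gene and the markers changed unequally and says nothing of which cells carried the signal.

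**Figure D3:**
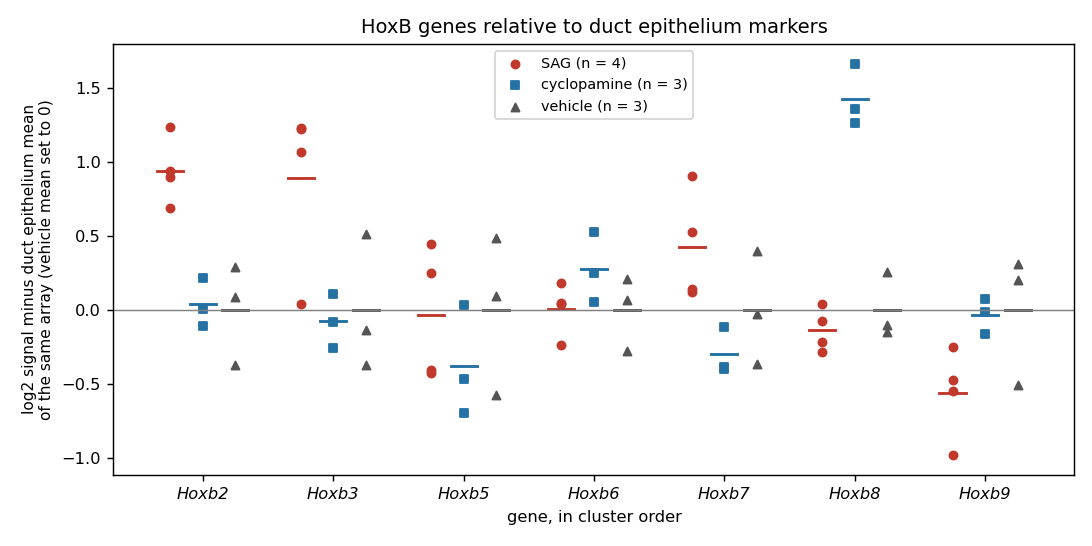
Log2 signal of the 7 genes from Hoxb2 to Hoxb9 minus the mean log2 signal of 14 duct epithelium markers on the same array, shifted so that each gene's vehicle mean is 0; points are arrays and bars group means. Hoxb8 is the only gene whose 3 cyclopamine arrays lie apart from its 3 vehicle arrays, by 1.43 on average, and Hoxb2 is the only one whose SAG arrays do, by 0.94.

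The promoters of Hoxb8, the HoxB gene with the largest differences between cyclopamine and the other groups, and of Hoxb1, which was dim in all groups, are shown to set the sequence beside the signals. Of the 9 measured genes, 2 had a promoter in the RefSeq table used here (build GRCm38.p6). The 250 bases before the annotated start are printed on the plus strand. Capitals mark matches on either strand to TTTATG or TTTATT, which are among the core letters bound by CDX factors.
Hoxb8 (chr11:96281655-96281904): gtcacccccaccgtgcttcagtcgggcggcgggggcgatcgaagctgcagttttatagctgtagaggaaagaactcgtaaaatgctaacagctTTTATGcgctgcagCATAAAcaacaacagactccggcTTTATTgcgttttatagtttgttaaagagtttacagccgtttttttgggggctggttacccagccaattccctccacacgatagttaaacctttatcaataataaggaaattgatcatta
Hoxb1 (chr11:96365508-96365757): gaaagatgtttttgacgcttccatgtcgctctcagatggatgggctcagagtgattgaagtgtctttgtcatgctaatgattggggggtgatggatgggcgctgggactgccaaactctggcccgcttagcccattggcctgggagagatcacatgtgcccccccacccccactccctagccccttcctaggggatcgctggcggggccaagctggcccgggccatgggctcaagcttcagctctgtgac

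The Hoxb8 promoter held 2 matches to TTTATG, 157 and 143 bases before the start, the second on the minus strand, and 1 match to TTTATT at 120 bases. None of these matches overlapped. Of 32851 RefSeq promoters searched over the same length and both strands, 10.8% held TTTATG and 18.1% held TTTATT. The Hoxb1 promoter held 0 of either. The similar letters TTTATA, which read TATAAA on the other strand, were left in lower case. They occurred in the Hoxb8 promoter 199 and 110 bases before the start, in 0 places in the Hoxb1 promoter, and in 12.4% of promoters on either strand. Neither promoter held the letters GACCACCCA of the GLI consensus, which occurred in 0.225% of promoters, or AGGTCA, the half-site of retinoic acid receptors, which occurred in 14%. The HOX-PBX letters TGATNNAT occurred in 1 place in each promoter and in 7.68% of all promoters. A match is only a run of letters in this window and is no evidence of binding.

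Known inputs to the cluster, and genes listed with them, were read on the same arrays. Of 6 measured genes among Cdx1, Cdx2, Cdx4, Egr2, Gdf11 and Mstn, 0 passed the limma test in any comparison, and 1 was under an unadjusted p of 0.05 in each. Cdx1 had log2 signals of 6.10 to 6.40 in SAG ducts, 6.48 to 6.69 in cyclopamine ducts and 6.19 to 6.72 in vehicle ducts. Cdx2 and Cdx4 were dimmer, with means under 5.19 in every group. Of 16 genes of retinoic acid synthesis, binding and breakdown, 1 fell and 0 rose with SAG, and 2 rose and 0 fell with cyclopamine. Over all probe sets, 0.279% fell and 0.45% rose with SAG, and 2.17% rose and 2.95% fell with cyclopamine. Between SAG and cyclopamine ducts, 1 of the 16 was higher with SAG, Rxra by 0.85 (adjusted p = 0.00874 with limma), and 2 were lower. In that comparison 5.42% of all probe sets were higher and 5.92% lower. Under an unadjusted p of 0.05 in limma, 2 of the 16 were higher and 3 lower in each comparison. Crabp1, which binds retinoic acid in the cytoplasm, averaged 7.05 ± 0.19 in SAG ducts (SD, n = 4), 10.66 ± 0.18 in cyclopamine ducts (SD, n = 3) and 9.82 ± 0.20 in vehicle ducts (SD, n = 3). Its log2 differences from vehicle were -2.76 with SAG (adjusted p = 5.86e-05 with limma) and 0.84 with cyclopamine (adjusted p = 0.0170). Aldh1a3, an enzyme that makes retinoic acid, rose with cyclopamine by a log2 difference of 1.76 (adjusted p = 0.00995 with limma), and had a log2 difference of -0.66 with SAG that did not pass. The brighter Aldh1a2 of the same list went the other way with cyclopamine. Its log2 difference was -0.87 with no overlap of arrays, and it did not pass (adjusted p = 0.0781 with limma). Cyp26b1, which breaks retinoic acid down, passed in neither comparison with vehicle, at 0.67 with SAG and 0.27 with cyclopamine. The Crabp1 call with cyclopamine was lost without cyclopamine 3, vehicle 1 or vehicle 2, with limma adjusted p up to 0.0677.

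Among the cofactors, 9 genes were read. With SAG, 0 of 9 passed against vehicle, and 1, Pknox2, was under an unadjusted p of 0.05. With cyclopamine, 1 of 9 fell, where 2.95% of all probe sets did, and 5 were lower and 0 higher under an unadjusted p of 0.05 in limma. The gene that fell was Pknox1, by a log2 difference of -0.83 (adjusted p = 0.0170 with limma). That call was lost without cyclopamine 3, vehicle 2 or vehicle 3 (limma adjusted p up to 0.0644). The abundant Meis1 and Meis2 had log2 differences of -0.07 and -0.27 with SAG and of -0.48 and -1.18 with cyclopamine, and neither passed. For both genes all cyclopamine arrays lay below all vehicle arrays, as for 11.9% of all probe sets, while SAG and vehicle arrays overlapped. Between SAG and cyclopamine ducts, Pknox1 and Pknox2 were higher with SAG by 0.82 and 1.80 on the log2 scale (limma adjusted p 0.00546 and 0.00580). They were 2 of 9 cofactors, where 5.42% of all probe sets were higher with SAG. Of 16 measured trithorax and polycomb genes, which maintain active and silent Hox states, 0 passed the limma test in any comparison. Under an unadjusted p of 0.05 they numbered 0 for SAG and 4 for cyclopamine against vehicle, and 2 for SAG against cyclopamine.

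The HoxB genes were set beside the other Hox clusters, of which 8 HoxA, 9 HoxC and 7 HoxD genes were measured. With SAG, 0 of these 24 genes passed against vehicle, and 1, Hoxd13, was under an unadjusted p of 0.05. With cyclopamine, 4 of 24 fell and 0 rose, where 2.95% of all probe sets fell and 3 of 9 HoxB genes rose. Under an unadjusted p of 0.05 in limma, 13 were lower and 1 higher. All cyclopamine arrays lay below all vehicle arrays for 4 HoxA, 6 HoxC and 3 HoxD genes, where 11.9% of all probe sets did so. They lay above them for 0 HoxA, 0 HoxC and 1 HoxD genes, where 11.2% did. Hoxa3, Hoxc5, Hoxc6 and Hoxd13 fell by log2 differences of -0.86, -1.65, -1.06 and -1.92 (limma adjusted p 0.0410, 0.0404, 0.0256 and 0.0142). Each of these 4 calls was lost in 3 to 8 of the 10 fits that left out 1 array, with limma adjusted p up to 0.123. Median log2 differences with cyclopamine were -0.91 for HoxA, -0.98 for HoxC and -1.06 for HoxD, against 1.03 for HoxB. The HoxD genes went both ways, with 4 negative and 3 positive differences, among them Hoxd1 at 0.85 with no overlap (adjusted p = 0.0527 with limma). The cyclopamine arrays were uneven for some of the other clusters' genes, and Hoxd11 had log2 signals of 9.90, 13.10 and 10.58 in cyclopamine ducts, against 13.41, 13.63 and 13.50 in vehicle ducts. Hoxa10 had 10.72, 13.91 and 12.04 in cyclopamine ducts, so that for both genes cyclopamine 2 lay closest to the vehicle arrays. Between SAG and cyclopamine ducts, 4 of 9 HoxC and 1 of 7 HoxD genes were higher with SAG, where 5.42% of all probe sets were higher. In the same comparison 1 of 7 HoxD genes was lower, where 5.92% of all probe sets were lower. Of the HoxA genes, 0 of 8 passed (2 under an unadjusted p of 0.05, limma). Without 1 array, the Hoxc4, Hoxc9, Hoxd1 and Hoxd11 calls were lost in 7, 3, 7 and 8 of 10 fits (limma adjusted p up to 0.172), while those of Hoxc5 and Hoxc6 held.

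**Figure D4:**
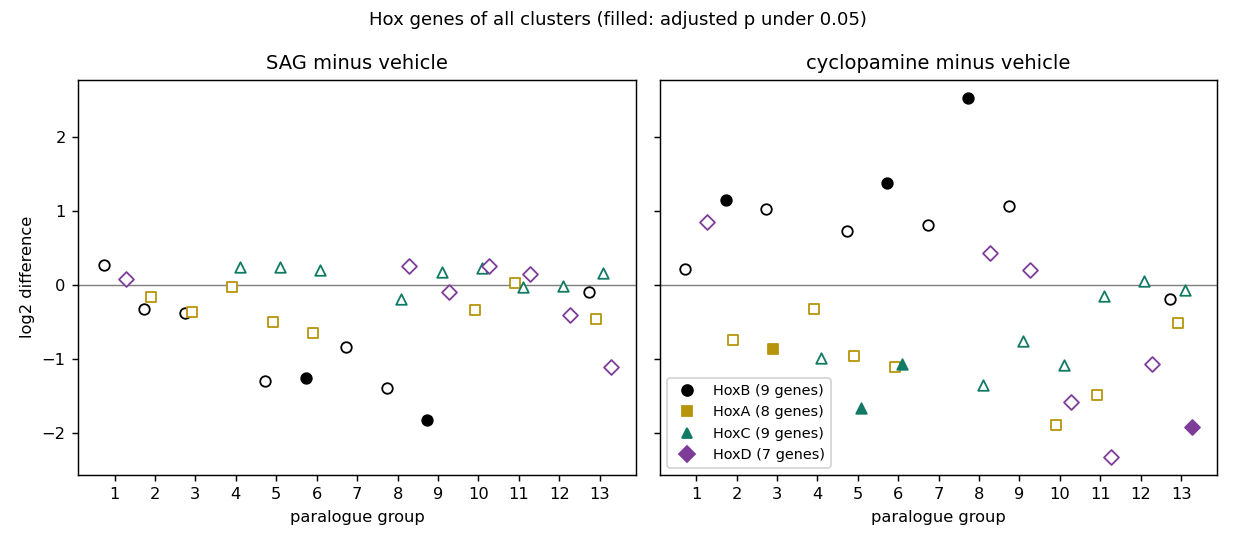
Log2 differences of the 9 measured HoxB genes and 24 other Hox genes by paralogue group for SAG minus vehicle and cyclopamine minus vehicle, with filled symbols for an adjusted p under 0.05 in limma. In the panel for cyclopamine, 3 HoxB genes are filled above 0, and Hoxa3, Hoxc5, Hoxc6 and Hoxd13 are filled below 0.

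Paralogues, the genes with the same number in different clusters, were read side by side within each array. The difference in log2 signal between a HoxB gene and a paralogue was compared between groups over 10 pairs. Each pair was taken because its HoxB gene had passed in a comparison, so the values describe the pairs and carry no test. For SAG against cyclopamine, the log2 difference of the HoxB gene was below that of its paralogue in these 10 pairs, by -1.90 for Hoxb3 with Hoxa3 to -5.09 for Hoxb8 with Hoxc8. For cyclopamine against vehicle it was above that of the paralogue in the same pairs, by 0.87 for Hoxb9 with Hoxd9 to 3.88 for Hoxb8 with Hoxc8. For SAG against vehicle the arrays overlapped for Hoxb2 with Hoxa2, Hoxb3 with Hoxa3, Hoxb6 with Hoxa6 and Hoxb9 with Hoxd9. Outside these pairs, the dim Hoxb1 had a log2 difference of 0.05 between SAG and cyclopamine ducts, and its paralogue Hoxd1 one of -0.76, which is the opposite order.

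The largest of these values with cyclopamine were for Hoxb8 and Hoxc8. Hoxc8, a gene of the trunk skeleton, had log2 signals of 13.56 to 15.07 in SAG ducts, 12.39 to 13.26 in cyclopamine ducts and 14.05 to 14.45 in vehicle ducts. Its cyclopamine arrays all lay below its vehicle arrays, whereas those of Hoxb8 all lay above theirs. The log2 difference of Hoxc8 with cyclopamine was -1.34 (adjusted p = 0.0637 with limma). Hoxd8, in the HoxD cluster, had overlapping arrays and a log2 difference of 0.44 with cyclopamine (adjusted p = 0.442 with limma). Hoxc6 averaged 12.70 ± 0.25 in cyclopamine ducts (SD, n = 3), and all its cyclopamine arrays were below its vehicle arrays, which lay at 13.76.

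The genes on either side of the HoxB cluster were read for comparison. Of 12 measured among 13 flanking genes, 0 passed with SAG against vehicle in limma, and 0 were under an unadjusted p of 0.05. With cyclopamine 1 fell and 0 rose, where 2.95% of all probe sets fell and 2.17% rose. The gene that fell was Copz2, a coat protein subunit of transport vesicles. It had log2 signals of 12.08 to 12.78 in cyclopamine ducts, against 12.93 to 13.68 in vehicle ducts. The log2 difference was -0.93 (adjusted p = 0.0355 with limma). That call was lost without SAG 2, SAG 3, cyclopamine 1, cyclopamine 3, vehicle 1 or vehicle 3, with limma adjusted p up to 0.123. The median log2 difference of the 12 genes was 0.04 with SAG and 0.08 with cyclopamine. Inside the cluster, between Hoxb13 and Hoxb9, the non-coding Gm53 was chosen after its values were seen. It had log2 signals of 5.22 to 5.55 in SAG ducts, 5.61 to 6.51 in cyclopamine ducts and 5.80 to 6.40 in vehicle ducts. Its SAG arrays lay below its vehicle arrays without passing the test (log2 difference -0.68, adjusted p = 0.244 with limma), and its cyclopamine and vehicle arrays overlapped. The antisense RNAs Hoxb3os and Hoxb5os and the microRNA genes Mir10a and Mir196a-1 were not analysed here.

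For Hoxb7 and for Hoxb8, the HoxB gene with the smallest p with cyclopamine, the 4 named genes outside the Hox family with the most similar pattern were found by Pearson correlation over the 10 arrays. The arrays share the group differences, so the values describe likeness and carry no p. For Hoxb7 they were Syngr2 (0.989), Myorg (0.983), Gpd1 (0.980) and Bmp7 (0.978), of which Bmp7 is a signalling ligand made by urogenital epithelia. For Hoxb8 they were Epb41l5 (0.991), Gnpda1 (0.990), Car5b (0.988) and Gm8615 (0.986), of which Epb41l5 is a cytoskeletal adaptor at cell junctions. Bmp7 averaged 9.01 ± 0.46 in SAG ducts (SD, n = 4), 10.63 ± 0.53 in cyclopamine ducts (SD, n = 3) and 9.81 ± 0.20 in vehicle ducts (SD, n = 3), and its groups did not overlap.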

How the data were processed

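Total RNA from 10 samples of cultured ducts was measured on Affymetrix arrays after labelling with the GeneChip WT Plus kit, per the labels' protocols. The authors deposited 1 table of signals for 22206 probe sets, and its values were read as log2 from their range. The authors' background correction and normalization were not given in the sources used here. Probe sets were named from the platform annotation, which gave a name to 19572 and none to 2634. A gene with several probe sets was represented by the one with the highest mean.

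All probe sets on the 10 arrays were fitted in 1 model of group means with limma 3.58.1 (R 4.3.3) and moderated variances. P-values were adjusted by Benjamini and Hochberg's method across the whole table, with a threshold of 0.05. Intervals are 95%. Paralogue pairs are given without a test, since each was taken for a HoxB gene that had passed. The script was tested on simulated data. Replicate numbers recur in the groups, and deviations of same-numbered arrays correlated at -0.19 to 0.24, so the numbers were not used as pairs.

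Named genes were all HoxB genes, members of the other lists that passed (at most 4 a list), a few fixed genes, paralogues of passing HoxB genes, and the 4 most similar genes for Hoxb7 and Hoxb8. Members and lists were chosen with earlier results of these data known. Alternatives concerned scaling, filter, prior variance, array weights, samples fitted, threshold, replicate block and leaving out each array.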

Additional observations from a re-analysis of the deposited data

Results flagged for a closer look

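Among 44 genes named or passing in the comparisons, the 4 SAG arrays were searched for 1 array far from the others by Dixon's ratio, which chance exceeds in about 1 group in 20. It did so for 1 gene, the HoxB neighbour Copz2. Its log2 signal was 13.37 on SAG 4, and SAG 1 to 3 lay between 13.55 and 13.57. The gap was 0.910 of the group's range. No HoxB gene had such an array.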

How the results depend on the processing

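The lower signal of 7 HoxB genes in SAG ducts than in cyclopamine ducts was called in 7 of 9 genes under every setting run and without any 1 array. With cyclopamine against vehicle, the 3 HoxB calls became 2 in a fit of only the 2 groups, 5 at an adjusted p under 0.10 and 3 to 5 without 1 array. Hoxb3 passed as well with arrays centred on their medians, without the dimmest 25% of probe sets, with an intensity-dependent prior variance and with array weights (limma adjusted p 0.0321 to 0.0481). With SAG against vehicle, the 2 calls became 4 in a fit of only the 2 groups, 4 with array weights, 4 at an adjusted p under 0.10, 0 at an adjusted p under 0.01, 0 with unmoderated variances and 0 to 4 without 1 array. Hoxb8 passed as well with the intensity-dependent prior variance (adjusted p = 0.0460 with limma). The cause was not tested. Counts over the other 24 Hox genes moved as well. With cyclopamine against vehicle, the 4 calls became 0 with unmoderated variances, 7 at an adjusted p under 0.10, 0 at an adjusted p under 0.01 and 0 to 7 without 1 array. With SAG against cyclopamine, the 6 calls became 3 in a fit of only the 2 groups, 2 with unmoderated variances, 2 at an adjusted p under 0.01 and 2 to 10 without 1 array. Without the dimmest 25% of probe sets, which removes Hoxb1 and Hoxb13, the median HoxB log2 difference was -1.25 for SAG against vehicle and -2.03 for SAG against cyclopamine. Spearman's rho along the cluster for cyclopamine against vehicle was 0.0357 with array weights and 0.0357 to 0.429 without 1 array. The dim genes changed sign: Hoxb13 was at 0.000548 for SAG against vehicle with each array centred on its median, and Hoxb1 at -0.027 for SAG against cyclopamine with array weights and at -0.039 to 0.19 without 1 array. Centring moved the median of all probe sets for SAG against vehicle from 0.01 to 0.10.

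Over all 22206 probe sets, calls for SAG against vehicle numbered 162 in the fit reported, 296 in a fit of only the 2 groups, 313 with array weights, 9 with unmoderated variances and 45 to 339 without 1 array. For cyclopamine against vehicle they numbered 1136, and 566, 1258, 568 and 485 to 1471 under the same settings. For SAG against cyclopamine they numbered 2518, and 2030, 2744, 1891 and 1843 to 2855. With the replicate number as a block, 32, 653 and 1613 probe sets were called in the 3 comparisons. SAG 4 is alone in its number, so this fit also leaves that array without weight. The replicate block left 0 of the 2 HoxB calls with SAG, as did leaving out SAG 4 with no block, 3 with cyclopamine and 7 between the compounds, and 3 of the 6 calls of other Hox genes for SAG against cyclopamine. Deviations of same-numbered arrays correlated at -0.19 to 0.24. These few correlations cannot settle whether the numbers pair the samples, since nothing says how samples were shared between litters.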
